A study of Rattus norvegicus with 6 samples.

Results

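The nuclear genes for subunits of respiratory complexes I, III, IV and V were measured by RNA-seq in adult rat hippocampal neural stem cells (NSCs) after knockdown of *Derl1*, which encodes the endoplasmic reticulum membrane protein Derlin-1. A gene was taken as a member when its symbol began with *Ndufa*, *Ndufb*, *Ndufc*, *Ndufs* or *Ndufv* (complex I, without the *Ndufaf* assembly factors), *Uqcr* (complex III), *Cox4* to *Cox8* (complex IV) or *Atp5* (complex V). This gave 77 of the 17315 genes in the tables, 36 in complex I, 8 in complex III, 16 in complex IV and 17 in complex V. The symbols follow an older nomenclature in which, for instance, *Atp5b* stands for the gene now named *Atp5f1b*. A few members are placed by their name alone. Ndufa4, grouped here with complex I, is known as a subunit of complex IV. *Atp5s* and *Atp5sl*, now *Dmac2l* and *Dmac2*, code for no subunit of ATP synthase, and *Cox6c-ps1* is a pseudogene. The subunits encoded by mitochondrial DNA were not analysed here.

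The 6 samples came from one NSC line derived from the hippocampus of adult Fisher 344 rats. In siControl, the cells were transfected with a control siRNA duplex, and in siDerl1 with a single duplex against *Derl1*, so that one siRNA sequence stands for the knockdown. Both groups were kept in proliferation medium for 2 days and then for 2 days in a quiescence medium with bone morphogenetic protein 4 (BMP4), which takes adult NSCs out of the cell cycle, so all values describe BMP4-treated cells. Each group had 3 samples numbered 1 to 3 alike in both groups, and the labels do not say whether a number marks a culture, a day or a library batch. The p-values below therefore measure the spread between these samples, which may be technical.

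Oxidative phosphorylation passes electrons from NADH through complex I, ubiquinone, complex III and cytochrome c to complex IV, which reduces oxygen, and complex V (ATP synthase) uses the proton gradient built on the way to make ATP. Most subunits are encoded in the nucleus, imported and assembled with a small core encoded by mitochondrial DNA. In adult hippocampal NSCs, mitochondrial metabolism is known to change as cells pass from quiescence to proliferation and neuronal differentiation.

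The targeted gene was lower in each siDerl1 sample than in any siControl sample. *Derl1* (NM_001014202) measured 122, 132 and 128 TPM (transcript abundance corrected for length and scaled to a fixed sum per library) in siControl samples 1 to 3 and 44.9, 70.8 and 74.0 TPM in siDerl1 samples 1 to 3, so the siDerl1 mean was 49.8% of the siControl mean. The log2 fold change was −1.03 (SE 0.18), with an adjusted p of 0.497 in limma without the sample number and 0.00884 with the number as a replicate block. With the block the limma adjusted p was 0.229 when the fit left out the trend of spread on intensity and 0.104 with no filter on low values. An exact permutation test gave p = 0.1, the smallest value 3 samples against 3 allow. In a principal component analysis of all genes, component 1 (55.7%) placed both samples numbered 1 away from the other 4, and component 2 (16.2%) parted siDerl1 from siControl. All 13 neural stem cell markers were detected, while 9 of 10 microglial markers stayed under 1 TPM in every sample and the microglial sum was 3.7 to 5.7 TPM. The summed markers of endothelial cells, pericytes and fibroblasts reached 1.7 to 4.0 TPM. Oligodendrocyte-lineage markers summed to 1845 to 2388 TPM, with *Mog* at 0, and the neuronal sum was 106 to 134 TPM. *Dcx* was lower in siDerl1 without overlap (8.83, 10.95 and 9.57 TPM in siControl, 6.38, 7.10 and 7.63 TPM in siDerl1, log2 fold change −0.42). *Tubb3* was higher without overlap (0.21). Of the stem cell markers, 9 were higher and 4 lower. *Nes* was lower without overlap (137, 125 and 113 TPM in siControl, 111, 101 and 99.4 TPM in siDerl1, log2 fold change −0.26). The astrocyte markers, 5 of 7 of them tested, summed to 574 to 829 TPM with a median log2 fold change of 0.35 in siDerl1. Of these, *Gfap*, the astrocyte filament protein, measured 47.0, 27.7 and 28.9 TPM in siControl samples 1 to 3 and 66.3, 47.5 and 45.3 TPM in siDerl1 samples 1 to 3, with a log2 fold change of 0.62. Its limma adjusted p was 0.704 without the block and 0.0219 with it, but 0.229 with the block and no trend and 0.111 with the block and no filter. *S100b* and *Slc1a3*, the most abundant markers of the list, had log2 fold changes of 0.013 and −0.15. The part of this list in the subunit values was not tested.

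The subunit genes were among the abundant transcripts of these NSCs. Together the 77 members took 2.994% to 3.278% of the TPM of a sample, and 72 had a mean of at least 1 TPM over the 6 samples and were tested (35 in complex I, 8 in complex III, 12 in complex IV and 17 in complex V). The median member had a mean of 282 TPM, with complex medians of 197 TPM for I, 228 TPM for III, 521 TPM for IV and 655 TPM for V. In complex I the highest mean was that of *Ndufb4* (NM_001037338), an accessory subunit of the membrane arm, at 668 TPM, and in complex III that of *Uqcr11*, a small accessory subunit, at 789.9 TPM. In complex IV *Cox6a1* led with 1520 TPM, and over all members *Atp5b* (NM_134364), the catalytic beta subunit of ATP synthase, was highest with 2628 TPM. The other catalytic-head subunit, alpha (*Atp5a1*), had a mean of 663 TPM. Among the core subunits of complex I, the flavin-binding Ndufv1 had a mean of 229 TPM and the iron-sulphur protein Ndufs1 114 TPM. In complex III, the core proteins *Uqcrc1* and *Uqcrc2* had means of 282 and 202 TPM and the Rieske iron-sulphur protein *Uqcrfs1* of 339 TPM. TPM is corrected for length, so these levels may be set side by side, but mRNA levels say nothing of the number of subunits in a complex.

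**Figure D1:**
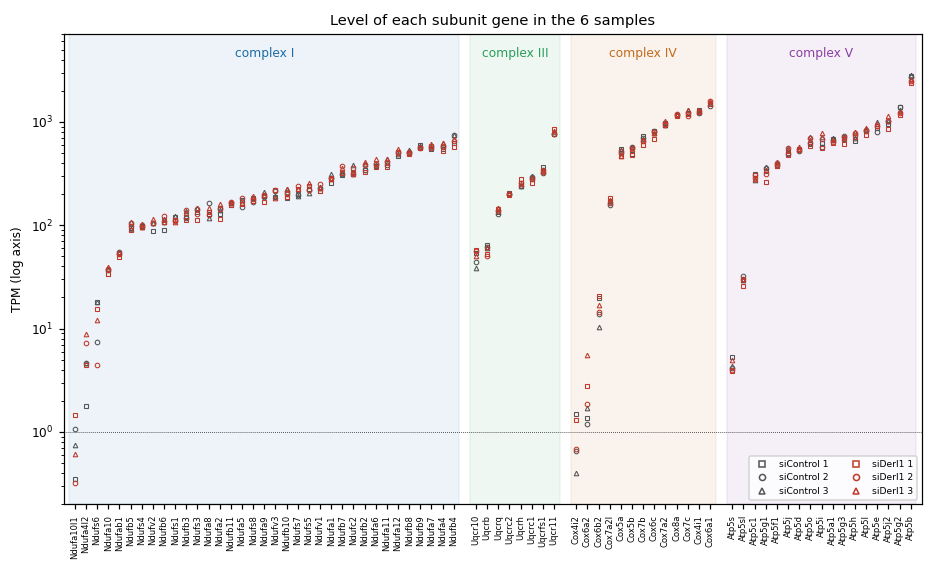
TPM (log axis) of the subunit genes in each of the 6 samples, ordered by mean within complexes I, III, IV and V, with siControl in grey and siDerl1 in red and 1 marker shape per sample number; values of 0, and 1 gene that is not reported here, are not drawn. The complex medians rise from 197 TPM for complex I to 655 TPM for complex V. The siControl and siDerl1 markers lie close together for most genes, and further apart for genes of low TPM such as *Cox6a2* and *Ndufa4l2*.

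Where a general and a tissue form of a subunit were both measured, the general form had the higher level. *Cox4i1*, the general form of subunit 4, had a mean of 1260 TPM, whereas *Cox4i2*, its lung- and hypoxia-associated paralog, was listed at 1.5, 0.66 and 0.40 TPM in siControl samples 1 to 3 and at 1.31, 0.68 and 0 TPM in siDerl1 samples 1 to 3. The ratio of the 2 means was 1662, and in the 5 samples with a value above 0 it ran from 872 to 3106. *Cox6a1* exceeded the heart and muscle form *Cox6a2* 632-fold in the means, from 290-fold in siDerl1 sample 3 to 1202-fold in siControl sample 2. *Cox6b2*, a testis form, was detected at a mean of 16.0 TPM, and its general partner *Cox6b1* was not analysed here. *Cox7a2* was 5.68 times as abundant as *Cox7a2l*, which codes for a related protein that joins complexes III and IV, and *Cox7a1* was not analysed here. Of the subunit 8 genes, *Cox8a* had a mean of 1168 TPM, while the muscle form *Cox8b* and the testis form *Cox8c* were listed at 0 in all 6 samples, as was *Cox6c-ps1*. *Ndufa4* exceeded its hypoxia-responsive paralog *Ndufa4l2* 110-fold in the means. The paralog of *Ndufa10*, *Ndufa10l1*, had 0.35, 1.07 and 0.75 TPM in siControl and 1.47, 0.32 and 0.61 TPM in siDerl1. These low and zero values carry no known depth, so absence cannot be told from too few reads.

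The question was whether knockdown of *Derl1* changed the subunit genes, as a set of complexes or one by one. In these bulk samples, fewer cells of a kind and less RNA per cell cannot be told apart. No member passed an adjusted p of 0.05 in limma on log2(TPM + 1), and neither did any other of the 10331 genes tested (0.0%). At an unadjusted p under 0.05, 2 members were higher (2.78%, beside 2.67% of all genes) and 3 were lower (4.17%, beside 4.03%), shares close to those of all genes. The higher members were *Ndufs7* and *Cox6a2*, and the lower ones *Atp5b*, *Atp5g2* and *Cox7b*. Log2 fold changes of the 72 members had a median of −0.0048, beside −0.016 over all genes tested, with 33 higher and 39 lower. By complex the medians were 0.017 in I (18 higher, 17 lower), 0.024 in III (4 and 4), −0.0082 in IV (5 and 7) and −0.024 in V (6 and 11). Each of these medians took both signs as samples were left out in turn. The changes were small. For 65 of 72 members (90.3%, beside 79.2% of all genes) the log2 fold change was within 0.2 of 0, and for 62 (86.1%, beside 48.7%) the 95% interval lay wholly inside the limits that the study used for a change, 0.8-fold to 1.5-fold. The median standard error of the log2 fold change was 0.074 for members and 0.12 for all genes. Other gene lists lay on both sides of the members in the share inside these limits. It was 95.1% for cytosolic ribosomal proteins, 92.3% for the citric acid cycle, 86.7% for electron carriers and 75.4% for mitochondrial ribosomal proteins. Past the study's limits (fold above 1.5 or below 0.8 with an unadjusted p under 0.05) lay 1 member higher, *Cox6a2* (1.39%, beside 0.532%), and 0 lower, beside 1.37%.

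Without overlap between the 3 siControl and the 3 siDerl1 values, 2 members were higher (2.78%, beside 5.09%) and 6 lower (8.33%, beside 8.52%). The lower members included *Atp5b*, *Atp5g2*, *Cox7b* and *Ndufs1*. When samples of the same number were compared as pairs, 14 members were higher in siDerl1 in all 3 pairs (19.4%, beside 15.8%) and 15 lower in all 3 (20.8%, beside 22.1%). With the number as a replicate block, again 0 members passed an adjusted p of 0.05, while 57 of all genes (0.552%) did. With the block, the count over all genes was 91 at a filter of 5 TPM, 54 with a pseudocount of 0.1, 35 after median-of-ratios scaling, 2 with no filter and 0 without the trend, where the smallest limma adjusted p was 0.105. The counts of members at an unadjusted p under 0.05 rose to 6 higher (8.33%, beside 6.84%) and 6 lower (8.33%, beside 8.88%), with *Uqcr10* and *Atp5h* among the higher and *Atp5g1* and *Ndufb4* among the lower. Past the study's limits, the block added *Ndufa4l2* to the higher and *Ndufs6* to the lower members, giving 2 higher (2.78%, beside 1.12% of all genes) and 1 lower (1.39%, beside 2.41%).

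**Figure D2:**
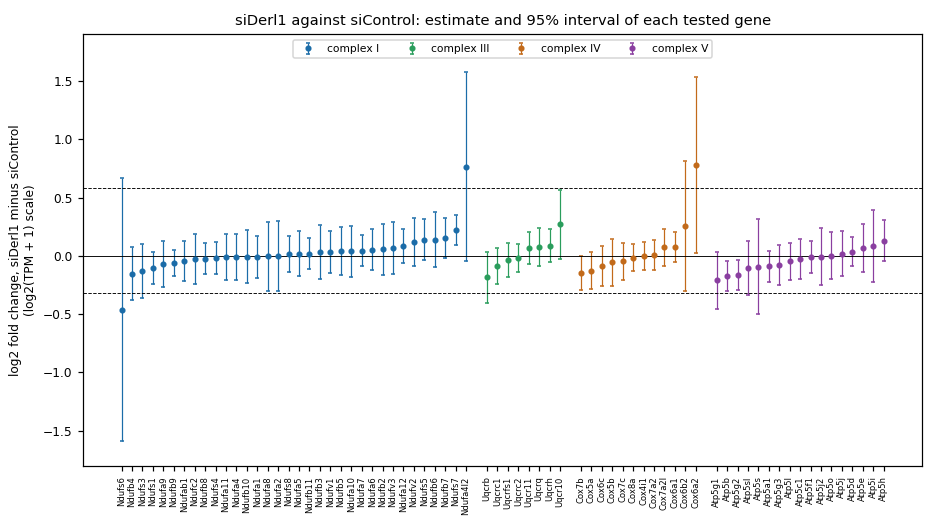
Log2 fold change (siDerl1 minus siControl, log2(TPM + 1) scale) of the tested subunit genes (1 not drawn), with points for the limma estimates and bars for the unadjusted 95% intervals, coloured by complex and ordered by estimate; dashed lines mark 0.8-fold and 1.5-fold. Most intervals stay between the dashed lines, and the widest belong to genes of low TPM such as *Ndufs6*, *Ndufa4l2*, *Cox6a2* and *Cox6b2*.

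In complex I the member with the smallest p was *Ndufs7* (NM_001008525), a core subunit that holds the iron-sulphur cluster next to the ubiquinone site. It measured 201, 196 and 194 TPM in siControl samples 1 to 3 and 225, 241 and 224 TPM in siDerl1 samples 1 to 3. Every siDerl1 value was above every siControl value. The log2 fold change was 0.22 (SE 0.056, 95% interval 0.092 to 0.35), with a limma adjusted p of 0.704 and, with the replicate block, 0.0993. It stayed between 0.19 and 0.24 when each sample was left out in turn. Ndufs1, the largest iron-sulphur subunit, measured 120.2, 113 and 122 TPM in siControl samples 1 to 3 and 113, 109.8 and 108 TPM in siDerl1 samples 1 to 3 (log2 fold change −0.10, SE 0.06), so its siDerl1 values were all lower. For the flavin subunit Ndufv1 the groups overlapped, with a log2 fold change of 0.031 and an interval from −0.15 to 0.21. None of these differences passed the adjusted threshold.

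The largest rise and the largest fall in complex I belonged to genes of low level. *Ndufa4l2* measured 1.78, 4.69 and 4.65 TPM in siControl samples 1 to 3 and 4.47, 7.18 and 8.83 TPM in siDerl1 samples 1 to 3. All 3 pairs of same-numbered samples were higher in siDerl1, and the groups overlapped because siDerl1 sample 1 lay among the siControl values. The log2 fold change was 0.77 (95% interval −0.043 to 1.58, limma adjusted p 0.751, 0.0978 with the block). It was 0.42 without siControl sample 1. *Ndufs6* (NM_019223), an accessory subunit that binds zinc, measured 18.1, 7.36 and 18.1 TPM in siControl samples 1 to 3 and 15.4, 4.41 and 12.1 TPM in siDerl1 samples 1 to 3. Both samples numbered 2 were the lowest of their group. The difference between the groups was −0.46 with an interval from −1.59 to 0.66, although it was lower in siDerl1 in all 3 pairs (−0.22, −0.63 and −0.54). With the replicate block the interval was −0.77 to −0.16 and the limma adjusted p 0.164. The estimate lay past the study's limit of 0.8-fold, and the interval reached inside it. Leaving out siDerl1 sample 2 alone, which keeps the low siControl sample 2 without its partner, gave 0.018. Without other samples it ran from −0.26 without siControl sample 3 to −0.86 without siControl sample 2. The next largest fall was that of *Ndufb4*, the complex I member highest in TPM. *Ndufb4* measured 619, 749.9 and 742 TPM in siControl samples 1 to 3 and 573, 647 and 675 TPM in siDerl1 samples 1 to 3. Both samples numbered 1 were the lowest of their group, and the log2 fold change was −0.15 (SE 0.10, limma adjusted p 0.807, 0.156 with the block). It was −0.24 without siControl sample 1 and −0.084 without siDerl1 sample 1.

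In complex III, 4 members were higher and 4 lower. Without the replicate block none had an unadjusted p under 0.05, and with it *Uqcr10* did. *Uqcr10*, a small accessory subunit, measured 54.1, 43.9 and 38.8 TPM in siControl samples 1 to 3 and 57.6, 55.8 and 50.8 TPM in siDerl1 samples 1 to 3. It was higher in siDerl1 in all 3 pairs, and the group values overlapped through siControl sample 1. Its log2 fold change of 0.27 (95% interval −0.028 to 0.57) had a limma adjusted p of 0.763, and with the block the interval was 0.086 to 0.45 and the adjusted p 0.174. The estimate was 0.16 without siControl sample 3. *Uqcrb*, the ubiquinone-binding protein, measured 64.2, 62.2 and 60.4 TPM in siControl samples 1 to 3 and 52.1, 50.6 and 62.0 TPM in siDerl1 samples 1 to 3, with a log2 fold change of −0.18 (95% interval −0.40 to 0.032). Only siDerl1 sample 3 lay among the siControl values. The hinge protein *Uqcrh*, another accessory subunit, had a log2 fold change of 0.089, and of 0.046 without siDerl1 sample 1. *Uqcr11*, the complex III member highest in TPM, had one of 0.068, which ran from 0.036 to 0.11 with each sample left out. Among the cores, *Uqcrc2* measured 205, 199 and 206 TPM in siControl samples 1 to 3 and 197, 201 and 203 TPM in siDerl1 samples 1 to 3, with an interval of the log2 fold change from −0.14 to 0.10, *Uqcrc1* had a log2 fold change of −0.087 (−0.033 without siDerl1 sample 1) and the Rieske protein *Uqcrfs1* one of −0.037.

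In complex IV the muscle form *Cox6a2* had the largest estimate. It measured 1.36, 1.19 and 1.72 TPM in siControl samples 1 to 3 and 2.8, 1.86 and 5.51 TPM in siDerl1 samples 1 to 3. Every siDerl1 value was above every siControl value, and siDerl1 sample 3 was the highest. The log2 fold change was 0.78 (95% interval 0.022 to 1.53, limma adjusted p 0.736) and 0.45 without siDerl1 sample 3. Its place past the study's limits was lost without siControl sample 1, siControl sample 2 or siDerl1 sample 3. The general form *Cox6a1* measured 1496, 1430.1 and 1514 TPM in siControl samples 1 to 3 and 1493, 1589.7 and 1598 TPM in siDerl1 samples 1 to 3 (log2 fold change 0.076, 95% interval −0.052 to 0.20). *Cox7b*, an accessory subunit, measured 724, 698 and 684 TPM in siControl samples 1 to 3 and 592, 648 and 664 TPM in siDerl1 samples 1 to 3, lower in each siDerl1 sample than in any siControl sample (log2 fold change −0.15, SE 0.061, limma adjusted p 0.739). Without siDerl1 sample 1 it was −0.098. The next lower estimate was that of *Cox5a*, another accessory subunit, with 550.3, 497 and 536 TPM in siControl samples 1 to 3 and 468, 521 and 462 TPM in siDerl1 samples 1 to 3 and a log2 fold change of −0.13 (95% interval −0.29 to 0.035). Here siDerl1 sample 2 lay among the siControl values. The general forms *Cox4i1*, *Cox7a2* and *Cox8a* had intervals from −0.12 to 0.12, −0.12 to 0.13 and −0.13 to 0.10. *Cox6b2* measured 19.9, 13.8 and 10.3 TPM in siControl samples 1 to 3 and 20.8, 14.4 and 16.9 TPM in siDerl1 samples 1 to 3, and its log2 fold change of 0.26 was 0.047 without siControl sample 3, 0.13 without siDerl1 sample 1 and 0.49 without siControl sample 1.

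**Figure D3:**
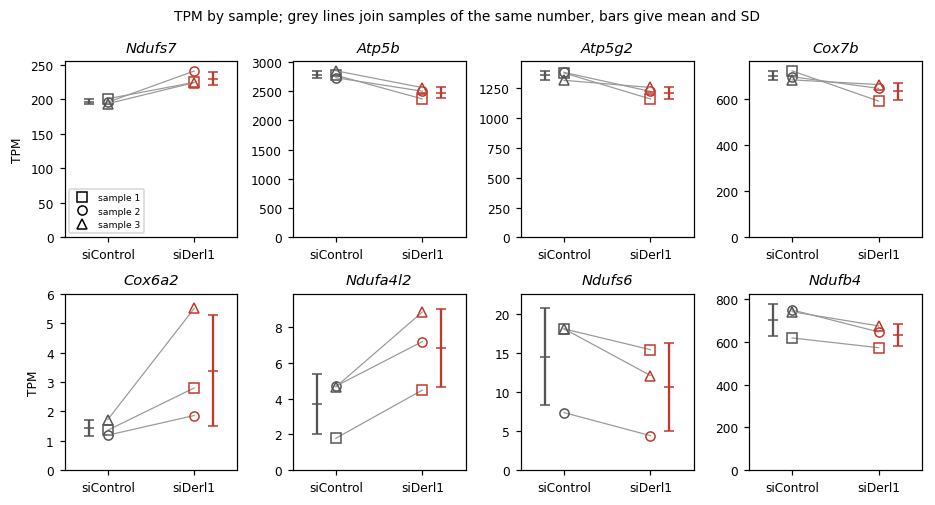
TPM (linear axes from 0) of 8 subunit genes by group, with grey lines joining samples of the same number and bars giving mean and SD of 3 samples. The siControl and siDerl1 values do not overlap for *Ndufs7*, *Atp5b*, *Atp5g2*, *Cox7b* and *Cox6a2*, while in both groups sample 2 is lowest for *Ndufs6* and sample 1 is lowest for *Ndufa4l2* and *Ndufb4*.

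In complex V, 11 of 17 members (64.7%, beside 54.8% of all genes) had lower estimates, and 9 of 17 did without both samples numbered 1. *Atp5b* measured 2770.5, 2727 and 2846 TPM in siControl samples 1 to 3 and 2366, 2498 and 2559 TPM in siDerl1 samples 1 to 3. All siDerl1 values were below all siControl values. The log2 fold change was −0.17 (SE 0.055, 95% interval −0.30 to −0.041), with a limma adjusted p of 0.704 and 0.116 with the replicate block, and it stayed between −0.19 and −0.14 when each sample was left out. Its partner in the catalytic head, *Atp5a1*, measured 677, 670.0 and 704 TPM in siControl samples 1 to 3 and 620.1, 632 and 674 TPM in siDerl1 samples 1 to 3, with a log2 fold change of −0.091 (95% interval −0.22 to 0.038). Here siDerl1 sample 3 lay among the siControl values. The 2 highest estimates were in subunits of the stalk and membrane parts. *Atp5h* (subunit d of the peripheral stalk) had a log2 fold change of 0.13 (95% interval −0.047 to 0.31). With the block the interval was 0.027 to 0.23 and the limma adjusted p 0.22, and without siControl sample 1 the estimate was 0.083. *Atp5i* (subunit e) had a log2 fold change of 0.084 (95% interval −0.22 to 0.39), which was −0.025 without siDerl1 sample 3 and 0.21 without siDerl1 sample 1. *Atp5s*, the lowest member of this group, measured 5.30, 4.19 and 4.33 TPM in siControl samples 1 to 3 and 3.85, 3.95 and 4.98 TPM in siDerl1 samples 1 to 3.

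The proton-carrying c ring of ATP synthase is made of one mature protein encoded by 3 genes, *Atp5g1*, *Atp5g2* and *Atp5g3*, whose precursors differ in their import signals. *Atp5g2* measured 1377, 1382 and 1315 TPM in siControl samples 1 to 3 and 1159, 1222 and 1256 TPM in siDerl1 samples 1 to 3, with all siDerl1 values lower (log2 fold change −0.16, SE 0.055, limma adjusted p 0.704). *Atp5g1* measured 332, 359 and 365 TPM in siControl samples 1 to 3 and 260.3, 313 and 345 TPM in siDerl1 samples 1 to 3, with a log2 fold change of −0.21 (95% interval −0.45 to 0.036, and −0.34 to −0.080 with a limma adjusted p of 0.145 with the block). Here siDerl1 sample 3 lay among the siControl values, and the estimate was −0.098 without siDerl1 sample 1. *Atp5g3* measured 687, 726 and 718 TPM in siControl samples 1 to 3 and 609, 716 and 699 TPM in siDerl1 samples 1 to 3 (log2 fold change −0.077), and the difference was −0.0051 without siDerl1 sample 1 and −0.12 without siDerl1 sample 2. The sum of the 3 genes was 2396, 2466 and 2398 TPM in siControl samples 1 to 3 and 2028, 2251 and 2299 TPM in siDerl1 samples 1 to 3. The groups did not overlap in this sum, which was chosen with the values known and was not tested. *Atp5g2* made up 54.3% to 57.5% of the sum in the 6 samples and *Atp5g3* 28.7% to 31.8%. *Atp5g1* made up 13.8%, 14.5% and 15.2% in siControl samples 1 to 3 and 12.8%, 13.9% and 15.0% in siDerl1 samples 1 to 3, lowest in sample 1 of both groups.

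The stretches before the start sites of the 3 subunit c genes are shown because these genes make the same mature protein at different levels, *Atp5g2* at 3.91 times *Atp5g1* and 1.86 times *Atp5g3* in the means. They are the 250 bases before the first listed start in the RefSeq promoter table (build GRCr8, whereas the reads were mapped to rn6), written 5′ to 3′ on the gene's strand. *Atp5g1* is at chr10:81523346-81523595, strand minus, *Atp5g2* at chr7:135678219-135678468, strand minus and *Atp5g3* at chr3:79220665-79220914, strand minus. Capitals mark matches to the motifs given after them.
Atp5g1: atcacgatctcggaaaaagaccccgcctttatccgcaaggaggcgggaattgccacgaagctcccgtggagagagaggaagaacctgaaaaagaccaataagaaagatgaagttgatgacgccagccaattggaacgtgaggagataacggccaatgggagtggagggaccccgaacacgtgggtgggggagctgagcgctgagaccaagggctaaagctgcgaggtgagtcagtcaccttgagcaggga
Atp5g2: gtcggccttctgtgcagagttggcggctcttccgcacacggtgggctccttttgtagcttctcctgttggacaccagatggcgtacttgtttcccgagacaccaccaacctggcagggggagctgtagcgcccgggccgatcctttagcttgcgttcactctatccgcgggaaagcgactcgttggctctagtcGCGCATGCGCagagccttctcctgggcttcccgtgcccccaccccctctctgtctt
Atp5g3: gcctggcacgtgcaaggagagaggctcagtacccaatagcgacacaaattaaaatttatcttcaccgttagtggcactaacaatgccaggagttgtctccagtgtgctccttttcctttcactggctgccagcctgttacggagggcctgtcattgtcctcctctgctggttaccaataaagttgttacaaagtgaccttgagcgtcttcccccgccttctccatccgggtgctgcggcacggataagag

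The motifs searched on both strands were those of NRF1 (GCGC, any base, then TGCGC), a regulator of nuclear genes for respiration, ETS factors (CCGGAAG), YY1 (AAGATGGC) and SP1 (GGGCGG). None of these letter strings contains another. *Atp5g2* held a match to the NRF1 motif 56 to 47 bases before the start, and the windows of *Atp5g1* and *Atp5g3* held no match to any of the 4. Of the 77 members, 65 were matched to a promoter, and the other 12 were not searched. The NRF1 motif was in 15.4% of the members' windows (15.9% of the 63 of tested members), beside 9.9% of the 8535 windows of genes tested here and 4.17% of all 27457 in the table. It was in 15.8% of the windows of 38 cytosolic ribosomal protein genes, which are not respiration genes. In complex IV it was in 0 of 12. The ETS motif was in 24.6%, beside 16.5% and 7.74% and, for the ribosomal protein genes, 23.7%, and the YY1 motif in 3.08%, beside 2.41% and 1.69% and, for the ribosomal protein genes, 2.63%. The SP1 motif was in 36.9%, beside 60.9% of genes tested, 32.4% of all and 63.2% for the ribosomal protein genes. These are matches of letters in a fixed window and were not tested.

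**Figure D4:**
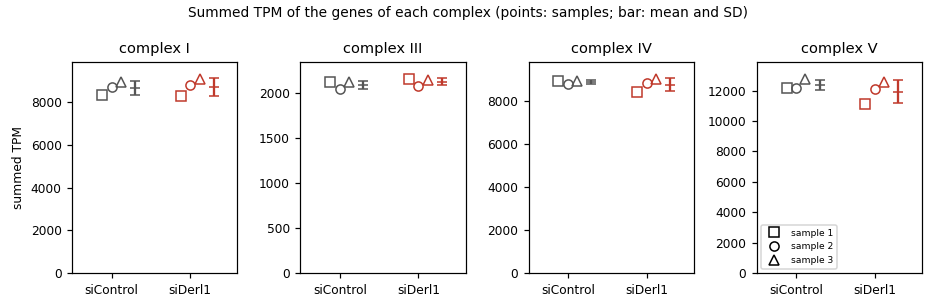
Summed TPM of the genes of each complex in the 6 samples (points, 1 shape per sample number) with mean and SD of 3 samples per group, on linear axes from 0. The sums of siControl and siDerl1 overlap in all 4 panels, and siDerl1 sample 1 is the lowest point for complexes I, IV and V.

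Summed over a complex, the groups overlapped each time. Complex I totalled 8323, 8677 and 8953 TPM in siControl samples 1 to 3 and 8266, 8773.5 and 9049.7 TPM in siDerl1 samples 1 to 3. Complex III totalled 2125, 2044 and 2124 TPM in siControl and 2156, 2087 and 2151 TPM in siDerl1. Complex IV totalled 8934, 8773 and 8935 TPM in siControl and 8423, 8829 and 9001 TPM in siDerl1. For complex V the sums were 12136, 12189 and 12767 TPM in siControl and 11097, 12097 and 12556 TPM in siDerl1, so the lowest value was that of siDerl1 sample 1. The group means over all 77 members were 31993 ± 685 TPM in siControl and 31495 ± 1431 TPM in siDerl1 (SD, n = 3).

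The subunit genes were also compared by sample number. In limma's F test for the number beside the siRNA group, 5 members passed an adjusted p of 0.05 (6.94%, beside 10.6% of all genes), and 19 had an unadjusted p under 0.05 (26.4%, beside 25.5%). The 5 were *Ndufs6* (adjusted p 0.00141), *Ndufb4* (0.0265), *Ndufa4l2* (0.0384), *Cox5b* (0.0421) and *Ndufa4* (0.0494). *Cox5b*, an accessory subunit of complex IV, measured 493, 572 and 573 TPM in siControl samples 1 to 3 and 478, 555 and 542 TPM in siDerl1 samples 1 to 3. Both samples numbered 1 were below the other 4. *Ndufa4* measured 544, 574 and 624 TPM in siControl samples 1 to 3 and 522, 580.1 and 629 TPM in siDerl1 samples 1 to 3, again with both samples numbered 1 lowest. In *Ndufs6* the number 2 samples stood apart instead, by −1.40 on the log2 scale against number 1. With no filter on low values, or without the intensity trend, 1 member passed (1.35% and 1.39%, beside 4.61% and 2.44% of all genes), and 3 passed after median-of-ratios scaling (4.17%, beside 9.45%). At a filter of 5 TPM 6 passed (8.57%, beside 12.1%), and 4 with a pseudocount of 0.1 (5.56%, beside 10.3%).

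Taken one group at a time, siDerl1 sample 1 was below siDerl1 samples 2 and 3 in 47 of 72 members (65.3%, beside 37.2% of all genes), and siControl sample 1 was below siControl samples 2 and 3 in 29 (40.3%, beside 43.1%). In complex V these counts were 16 of 17 for siDerl1 and 7 of 17 for siControl, in complex I 22 and 19 of 35, in complex III 3 and 1 of 8, and in complex IV 6 and 2 of 12. The median log2 difference between sample 1 and the mean of samples 2 and 3 was −0.095 in siDerl1 and −0.047 in siControl, and in complex V −0.17 and −0.046. Both samples numbered 1 were below all other 4 in 17 members (23.6%, beside 17.0%) and above them in 2 (2.78%, beside 15.7%). Some lists of other mitochondrial genes had a low sample 1 too. Among 69 mitochondrial ribosomal proteins the median difference was −0.095 in siDerl1 and −0.072 in siControl, and among 15 electron carriers −0.18 and −0.19. Both samples numbered 1 were below all other 4 in 18 of the 69 and 6 of the 15. The biogenesis regulators (0.034 and 0.0625) went the other way. So did the cytosolic ribosomal protein genes, with sample 1 above samples 2 and 3 by a median of 0.090 in siDerl1 and 0.14 in siControl. The complex V difference between the groups was largest in the pair numbered 1. The median siDerl1 minus siControl difference of its 17 genes was −0.13 in pair 1, −0.022 in pair 2 and −0.039 in pair 3, beside 0.0089, −0.027 and −0.033 over all genes tested, so that pairs 2 and 3 lay close to all genes. Over all 72 members it was −0.048, 0.014 and 0.012. Without both samples numbered 1 the complex V median was −0.0072 and the median over all members 0.020. Without siDerl1 sample 1 alone the complex V median was 0.0062, and without siDerl1 sample 3 it was −0.10. Other measures moved with the number too. The summed neural stem cell markers were 5431 and 5852 TPM in the samples numbered 1 and 7551 to 8860 TPM in the other 4, a sum carried by *Vim* (3008 and 3386 TPM against 4644 to 5044 TPM) and *Id3*. *Fabp7* of the same list went the other way, with 196 and 220.1 TPM against 97.2 to 132 TPM. Astrocyte markers summed to 783 and 829 TPM in the samples numbered 1 and to 574 to 604 TPM in the other 4, a sum carried by *S100b* (679 and 708 TPM against 445 to 467 TPM). *Slc1a3* went the other way, with 52.1 and 47.9 TPM against 69.7 to 83.5 TPM, and the median log2 difference of sample 1 from samples 2 and 3 over the astrocyte markers was −0.47 in siControl and −0.35 in siDerl1. Oligodendrocyte-lineage markers summed to 2240 and 2388 TPM against 1845 to 2137 TPM. Their part in the subunit values was not tested.

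**Figure D5:**
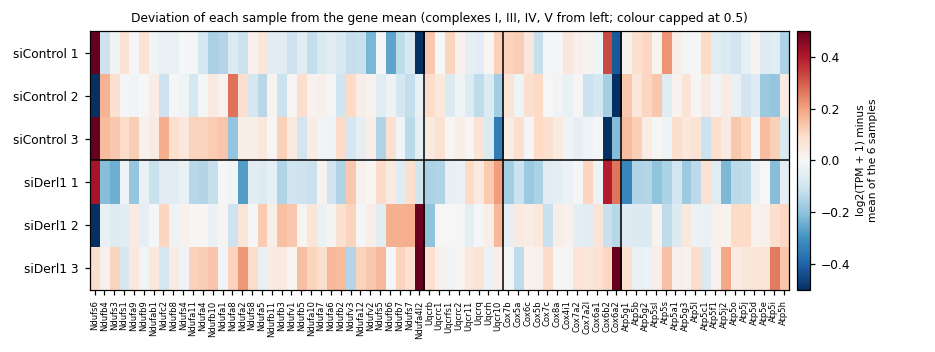
Deviation of log2(TPM + 1) in each sample (rows) from the mean of the 6 samples for the tested subunit genes (1 not drawn; columns, by complex and then by fold change), with red above and blue below the mean and colours capped at 0.5. In the row of siDerl1 sample 1, 16 of the 17 complex V genes lie below both other siDerl1 samples.

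The subunit genes had a lower median spread between samples than all genes tested. The median SD of log2(TPM + 1) over the 6 samples was 0.10 for the members (0.11 in complex I, 0.077 in III, 0.087 in IV and 0.10 in V), 0.15 over all genes tested and 0.091 for cytosolic ribosomal proteins.

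Genes around the complexes were described in the same way. With limma, 0 genes of the lists below passed an adjusted p of 0.05, without the replicate block or with it, so the values are counts and medians of the log2 fold change. Over all genes tested, 45.2% had higher and 54.8% lower estimates, and 2.67% were higher and 4.03% lower at an unadjusted p under 0.05. Of the 12 complex I assembly factors, 2 were higher (16.7%) and 0 lower at an unadjusted p under 0.05 (median −0.010). All 5 complex III assembly factors had lower estimates (median −0.075), 0 of them at an unadjusted p under 0.05. Of 17 complex IV assembly factors 1 was higher (5.88%) and 2 were lower (11.8%) at the same level (median −0.020), and of 6 for complex V 0 (median −0.011). The 4 subunits of complex II, which feeds electrons from succinate, had a median of −0.014, and 15 electron carriers one of −0.016, with 0 genes of either list at an unadjusted p under 0.05. In the citric acid cycle, which supplies NADH, 9 of 13 genes (69.2%) had lower estimates (median −0.054, 1 lower at an unadjusted p under 0.05). Among 16 regulators of mitochondrial biogenesis, 12 (75.0%) had lower estimates (median −0.061, 1 lower at an unadjusted p under 0.05). Import and mass markers (15 genes) had a median of −0.028, with 1 lower at an unadjusted p under 0.05, and 69 mitochondrial ribosomal proteins a median of 0.023, with 1 lower (1.45%). Of 82 cytosolic ribosomal proteins tested, 69 (84.1%) had higher estimates (median 0.060), 3 of them (3.66%) at an unadjusted p under 0.05.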

How the data were processed

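RNA-seq of 6 samples was used, 3 siControl and 3 siDerl1, grouped and numbered from the labels. The authors extracted poly(A) RNA, made strand-specific libraries, and ran Trimmomatic (0.39) for trimming, STAR (2.7.3a) for alignment against rn6 and RSEM (1.3.2) for quantification. They deposited TPM with 2 decimals, and each sample sums to 1000000. TPM keeps no depth, so depth per sample is unknown, no counting interval can be given, and precision rests on the spread of 3 samples. RSEM can split reads between near-identical copies, so members with pseudogenes or close paralogs are uncertain. The authors' own test was edgeR (3.28.1) on values not used here.

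Here log2(TPM + 1) was fitted with limma (3.58.1, R 4.3.3; lmFit, then eBayes with a trend on intensity) for the 10331 genes averaging 1 TPM or more, with Benjamini-Hochberg adjustment over all of them, and fold changes are on that scale. The steps were tested on simulated data with independent noise and a number effect in only a small part of the genes. That setting is milder than the spread by number found here, so it says little of the main fit. The F test for the sample number used the fit of group plus number. Same-numbered samples deviated together from their group means (r = 0.70, 0.35 and 0.51 for numbers 1, 2 and 3). Between numbers 2 and 3, r was 0.34 and 0.25, so number 2 hardly stood above a mismatch, while number 1 against the others gave −0.59 to −0.41. The numbers were taken to pair the samples because every same-number correlation was over 0.1. The mismatches of numbers 2 and 3 were over 0.1 as well, so this rule shows only that number 1 stood apart. The pairing of numbers 2 and 3 is assumed. The fit with a replicate block is given beside the main one where it changed a count. Alternatives were a pseudocount of 0.1, no filter, a filter at 5 TPM, median-of-ratios scaling, no trend, the block, each sample left out, and both samples numbered 1 left out.

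Named genes were the targeted gene and, per complex, the members highest and lowest in TPM, the 2 largest rises and falls and the smallest p, the 5 smallest p for the number, members under 1 TPM, tissue forms and core subunits, and members past a call. The members, the lists of pathway genes and the marker lists were chosen with earlier results of these data known. Current symbols and promoters came from RefSeq tables of GRCr8, used for names and sequence only; for genes with several starts the first listed was kept. There is 1 member that counts in every total but is not reported here by name or drawn.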

Additional observations from a re-analysis of the deposited data

How the results depend on the processing

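No member passed an adjusted p of 0.05 for siDerl1 under any alternative run, with limma and 5 members at an unadjusted p under 0.05 in the main fit. The replicate block moved *Derl1* (−1.03, limma adjusted p 0.00884) past the threshold, as did leaving out both samples numbered 1 (−0.83, 0.00545). With the block its adjusted p was 0.229 without the trend, where 0 genes passed, and 0.104 with no filter, where 2 did. The block put 2 members above and 1 below the study's limits in place of 1 and 0. It changed no other call counted by adjusted p among the members. A filter at 5 TPM, which drops *Cox6a2*, left 0 members past these limits and 1 higher member without overlap in place of 2. Without both samples numbered 1, 16 members were higher (22.2%, beside 16.3% of all genes) and 12 lower (16.7%, beside 26.5%) without overlap, with fewer samples compared. Leaving out each sample gave 0 to 1 members past the limits, 4 to 11 higher and 6 to 14 lower without overlap (5.56% to 15.3% and 8.33% to 19.4%, beside 7.99% to 11.1% and 11.5% to 17.9% of all genes), and medians of −0.016 to 0.050 in complex I, −0.0037 to 0.036 in III, −0.022 to 0.012 in IV, −0.10 to 0.0062 in V and −0.022 to 0.030 over all members. Median-of-ratios scaling gave 0.032 in complex I, 0.039 in III, 0.0073 in IV, −0.0084 in V and 0.011 over all members. It shifted the median of all genes from −0.016 to −0.0015. The causes of these moves were not tested. The members called for the sample number went from 5 (6.94%, beside 10.6%) to 1 without a filter (1.35%, beside 4.61%), to 3 after scaling (4.17%, beside 9.45%) and to 1 without the trend (1.39%, beside 2.44%). They were 4 with a pseudocount of 0.1 (5.56%, beside 10.3%) and 6 at a filter of 5 TPM (8.57%, beside 12.1%). Without both samples numbered 1 the medians were 0.014 in IV and 0.020 over all members. Directions turned for 10 named genes, to values close to 0. After scaling *Cox4i1* was at 0.015 and *Ndufa4* at 0.0058, and without both samples numbered 1 *Atp5s* was at 0.049, *Cox4i1* at 0.040, *Ndufa4* at 0.014 and *Uqcrfs1* at 0.021. With each sample left out, *Atp5i* ran from −0.025 to 0.21, *Cox4i1* from −0.018 to 0.026, *Cox5b* from −0.13 to 0.011, *Cox7a2* from −0.025 to 0.034, *Cox8a* from −0.034 to 0.0054, *Ndufa4* from −0.074 to 0.060, *Ndufs6* from −0.86 to 0.018, *Ndufv1* from −0.028 to 0.088 and *Uqcrfs1* from −0.079 to 0.011. The other 407 values of single genes under the alternatives kept their direction. Low genes and 3 samples a group limit what can be seen, and no depth is known.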
